A study of Mus musculus with 8 samples.

Results

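Immune checkpoint ligands and the enzymes that make extracellular adenosine are surface or secreted products by which tumour cells restrain T cells, natural killer cells and macrophages. The 8 genes described here were chosen by name for that function, with earlier results of these data known. They are Cd274, Pdcd1lg2, Cd47, Nt5e, Entpd1, Lgals9, Pvr and Nectin2. Each has a row of its own among the 41730 rows of the counts table, and 7 of the 8 passed the filter on low counts. Entpd1 did not.

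RNA-seq was done on spheroids grown in hanging drops from 4T1 cells, an established mouse (BALB/c) mammary carcinoma line. In shTlr7 (n = 4 libraries) the cells had received a lentivirus for a hairpin RNA against Tlr7, the endosomal receptor for single-stranded RNA, and in shCtrl (n = 4 libraries) a lentivirus for a scrambled hairpin. Both groups thus carried a lentiviral hairpin, each group rests on 1 hairpin per the labels, and neither contained cells of a host. The labels do not tie the 4 libraries of a group to separate cultures, so the p-values rest on the spread among 4 libraries a group, which may be technical.

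PD-L1 (Cd274) and PD-L2 (Pdcd1lg2) engage the receptor PD-1 on T cells. CD47 engages SIRP-alpha on macrophages and holds back phagocytosis, and galectin-9 (Lgals9) binds glycans of TIM-3 and other receptors. CD155 (Pvr) and nectin-2 (Nectin2) are adhesion molecules shared by the inhibitory receptor TIGIT and the activating receptor DNAM-1. CD39 (Entpd1) hydrolyses extracellular ATP and ADP to AMP, and CD73 (Nt5e) turns AMP into adenosine, which acts on lymphocytes through adenosine receptors. Interferons are well-known inducers of PD-L1 and galectin-9.

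Library totals ranged from 18.1 to 93.8 M counts. Tlr7 had 0, 4, 3 and 0 counts in shTlr7 and 2, 3, 2 and 2 counts in shCtrl replicates 1 to 4, so the knockdown could not be checked at this depth. Of 18 leukocyte markers, 6 were at 0 in every library and 16 averaged at most 1 CPM (counts scaled to library size, with TMM factors) in both groups. Ptprc, the common leukocyte antigen CD45, averaged 0.179 CPM in shTlr7 and 0.135 CPM in shCtrl. Cd68, a lysosomal protein used as a macrophage marker, carried most of the list's summed level of 32.1 to 44.8 CPM in shTlr7 and 23.6 to 28.8 CPM in shCtrl. The other 17 markers summed to 0.804 to 1.34 CPM in shTlr7 and 1.63 to 1.94 CPM in shCtrl. Csf1r, the macrophage growth factor receptor, made that gap, with 0.241 CPM in shTlr7 and 1.14 CPM in shCtrl, and the 16 markers without it overlapped, at 0.643 to 1.07 CPM in shTlr7 and 0.539 to 0.714 CPM in shCtrl. Among these, Itgam averaged 0.189 CPM in shTlr7 and 0.00506 CPM in shCtrl, from 38 and 1 counts pooled over the libraries of each group. Cd4 averaged 0.0858 CPM in shTlr7 and 0.0236 CPM in shCtrl, from 17 and 3 pooled counts. Of 9 fibroblast and endothelial markers, 8 averaged at most 1 CPM in both groups, the exception being Pdgfra with 43.6 CPM in shTlr7 and 42.3 CPM in shCtrl. Their list summed to 42.2 to 47.4 CPM in shTlr7 and 42.2 to 43.7 CPM in shCtrl. The epithelial markers Krt8, Krt18 and Epcam were abundant, and Krt5 and Cldn7 were at 0. Those 9 epithelial markers summed to 4262 to 4747 CPM in shTlr7 and 5482 to 5954 CPM in shCtrl. The keratin Krt14 differed most among the epithelial markers, with means of 3.26 CPM in shTlr7 and 36.2 CPM in shCtrl. Its log2 fold change was -3.50. The keratins Krt7, Krt8 and Krt18 were also lower in shTlr7, with log2 fold changes of -1.19, -0.37 and -0.47. Epcam and Cdh1 were higher, at 0.15 and 0.20. The part of these marker differences in the results on the ligands was not tested.

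The ligands went both ways. Lgals9, Cd274, Pvr and Cd47 rose in shTlr7, Nt5e and Nectin2 fell, Pdcd1lg2 did not pass the threshold and Entpd1 was close to absent. Thus 4 of the 7 tested members were higher and 2 lower (edgeR quasi-likelihood test over all genes, adjusted p under 0.05). The comparison called 56.1% of all 13393 tested genes, 29.3% higher and 26.8% lower, so a call by itself sets no member apart. The CPM ranges of the groups did not overlap for 4 of the 7 tested members on the higher side and 2 on the lower side, the same 6 as called. This held for 49.8% of all tested genes, 26.0% on the higher side and 23.8% on the lower side. The median log2 fold change was 0.30 over the 7 members and 0.01 over all genes. Scaling by library size alone moved that median of all genes up by 0.10 and gave 5513 higher and 2491 lower genes, against 3927 and 3590, while the members' counts were the same. In these bulk samples, a change in the share of cells that make a transcript and a change in the amount per cell cannot be told apart.

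**Figure D1:**
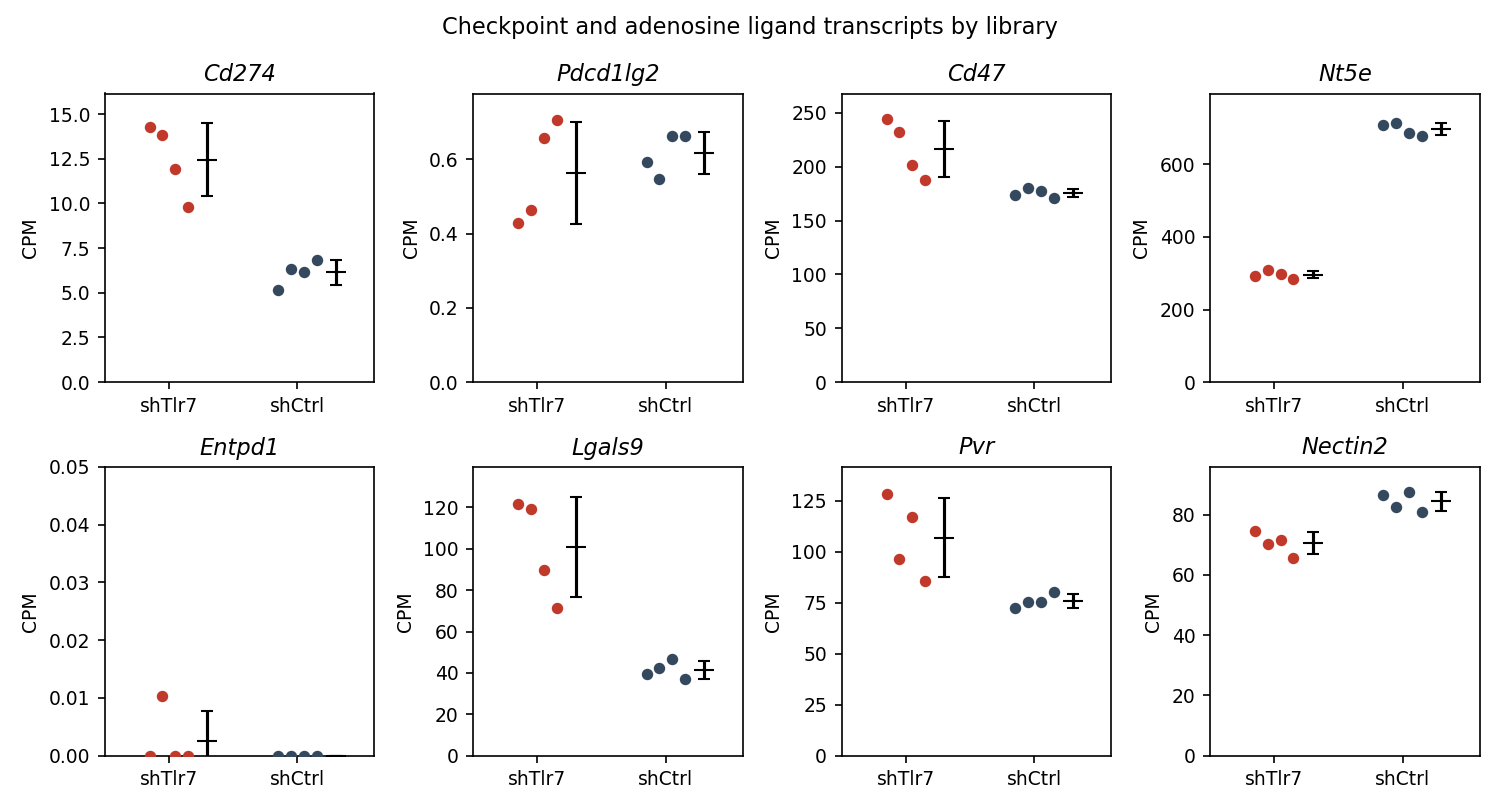
CPM of each of the 8 genes in every library (points, shTlr7 left and shCtrl right) with mean and SD over 4 libraries (bars). Every panel starts at 0 on its own linear axis. The shTlr7 points lie above all shCtrl points for Cd274, Cd47, Lgals9 and Pvr, below them for Nt5e and Nectin2, and on both sides of them for Pdcd1lg2.

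PD-L1 transcripts rose, while those of PD-L2 were few in both groups. Cd274 (chromosome 19, 29362107 to 29388095, plus strand, GRCm38.p6) had 14.3, 13.8, 11.9 and 9.81 CPM in shTlr7 replicates 1 to 4, against 5.18, 6.36, 6.17 and 6.85 CPM in shCtrl replicates 1 to 4. Every shTlr7 library was above every shCtrl library. The log2 fold change was 1.01 ± 0.12 (SE), a 2.02-fold level (edgeR adjusted p = 1.31e-05). The RefSeq span of Cd274 overlaps that of the protein-coding gene Plgrkt, chosen after its values were seen. Plgrkt had 44.7 ± 1.42 CPM in shTlr7 and 33.7 ± 2.13 CPM in shCtrl (SD, n = 4 each). In GENCODE M21, Cd274 starts at 29367455, after the RefSeq end of Plgrkt at 29367292. The part of this overlap in the Cd274 counts was not tested. In GENCODE M21, 14.1% of the exon bases of Cd274 are shared with an antisense transcript on the opposite strand. With the strand setting unknown, reads of that transcript cannot be told apart from those of Cd274. The long noncoding RNA gene Gm36043, whose RefSeq span lies inside that of Cd274, was chosen after its values were seen. It had 0.938 ± 0.174 CPM in shTlr7 and 0.352 ± 0.180 CPM in shCtrl (SD, n = 4 each).

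Pdcd1lg2 (chromosome 19, 29410919 to 29472927) starts 22.8 kb after the end of Cd274. It had 8, 45, 23 and 21 counts in shTlr7 replicates 1 to 4, or 0.429, 0.464, 0.656 and 0.705 CPM, against 11, 27, 13 and 15 counts in shCtrl, or 0.593, 0.547, 0.663 and 0.663 CPM. The groups overlapped, with 2 shTlr7 libraries below all shCtrl libraries and 1 above. Its log2 fold change of -0.13 ± 0.24 (SE) had an edgeR adjusted p of 0.668, and without shTlr7 replicate 2 it was 0.03 (edgeR adjusted p = 0.939). With these few counts, a change of the size seen for Nectin2 was not detectable.

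Galectin-9 had the largest rise of the 8 genes. Lgals9 (chromosome 11, 78962979 to 78984924, minus strand) had 122, 119, 89.9 and 71.6 CPM in shTlr7 replicates 1 to 4, against 39.5, 42.5, 46.8 and 37.0 CPM in shCtrl. The lowest shTlr7 library lay above the highest shCtrl library, although the shTlr7 libraries differed among themselves by more (coefficient of variation 24.0% in shTlr7 and 10.2% in shCtrl). The log2 fold change was 1.28 ± 0.18 (SE), a 2.43-fold level (edgeR adjusted p = 6.59e-04).

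The promoters of Lgals9 and Cd274, the members with the largest rises, and of Nt5e, the member with the largest fall, are shown from RefSeq (GRCm38.p6), each with 250 bases before and 50 bases after the annotated start of transcription. Capitals mark a core of the interferon-stimulated response element, searched on either strand as GAAA, any 2 bases and GAAA. The windows are chr11:78984875-78985174 (minus strand) for Lgals9, chr19:29367188-29367487 (plus strand) for Cd274 and chr9:88327359-88327658 (plus strand) for Nt5e. The start used for Cd274 lies inside its RefSeq gene span.
Lgals9: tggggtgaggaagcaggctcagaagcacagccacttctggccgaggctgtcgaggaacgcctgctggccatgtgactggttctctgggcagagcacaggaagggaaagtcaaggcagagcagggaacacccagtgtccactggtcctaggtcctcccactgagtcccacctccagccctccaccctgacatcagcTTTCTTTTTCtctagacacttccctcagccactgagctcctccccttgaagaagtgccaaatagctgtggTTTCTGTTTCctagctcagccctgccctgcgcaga
Cd274: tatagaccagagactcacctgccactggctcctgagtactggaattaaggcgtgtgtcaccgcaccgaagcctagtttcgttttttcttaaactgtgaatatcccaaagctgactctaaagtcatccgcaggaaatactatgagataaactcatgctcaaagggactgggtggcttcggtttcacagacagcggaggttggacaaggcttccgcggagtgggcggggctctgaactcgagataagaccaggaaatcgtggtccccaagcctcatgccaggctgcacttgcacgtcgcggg
Nt5e: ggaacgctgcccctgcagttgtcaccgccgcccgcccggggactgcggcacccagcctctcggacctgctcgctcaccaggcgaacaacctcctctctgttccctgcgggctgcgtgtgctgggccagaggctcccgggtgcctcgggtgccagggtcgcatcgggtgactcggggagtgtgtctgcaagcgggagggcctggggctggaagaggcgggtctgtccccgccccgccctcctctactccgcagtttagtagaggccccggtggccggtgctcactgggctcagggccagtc
Of the 8 genes, 7 had an entry, with 9 windows in all, and Pvr had none. Lgals9 held 2 matches, which begin at base -55 and at base 16 counted from the start of transcription, and no other window held one. The pattern occurs in 3.44% of all 32851 promoter windows. The patterns TTCNNNGAA of the gamma-activated sequence (8.3% of windows) and GGAATG of TEAD proteins (14.7% of windows), both searched on either strand, had no match in the 9 windows. These matches describe letters within 300 bases only.

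The CD47 transcript rose slightly. Cd47 (chromosome 16, 49851328 to 49912503) had 244, 232, 202 and 188 CPM in shTlr7 replicates 1 to 4, against 174, 179.9, 178 and 171 CPM in shCtrl. No shTlr7 library reached down to the shCtrl range, which was narrow. The log2 fold change was 0.30 ± 0.07 (SE), a 1.23-fold level (edgeR adjusted p = 0.0034). It was 0.40 under scaling by library size alone.

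The nectin-type ligands of TIGIT changed in opposite directions. Pvr (chromosome 7, 19903578 to 19921143, minus strand) had 128, 96.4, 117 and 85.8 CPM in shTlr7 replicates 1 to 4, against 72.3, 75.4, 75.3 and 80.4 CPM in shCtrl. All shTlr7 libraries were above all shCtrl libraries, replicate 4 of shTlr7 by a small margin. The log2 fold change was 0.49 ± 0.12 (SE), a 1.41-fold level (edgeR adjusted p = 0.00563).

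Nectin2 (chromosome 7, 19716644 to 19749573, minus strand) lies 154.0 kb from Pvr. It had 74.5, 70.3, 71.7 and 65.6 CPM in shTlr7 replicates 1 to 4, against 86.5, 82.4, 87.6 and 81.0 CPM in shCtrl. The groups did not overlap, and the fall was small, with a log2 fold change of -0.26 ± 0.05 (SE), a 0.836-fold level (edgeR adjusted p = 5.21e-04). Under scaling by library size alone it was -0.16. In GENCODE M21, 3.86% of its exon bases are shared with an antisense transcript.

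Among the 4 rising genes, shTlr7 replicate 1 was the highest and shTlr7 replicate 4 the lowest shTlr7 library for all 4. That replicate 4 was also the lowest shTlr7 library for Nt5e and Nectin2, which fell. Without shTlr7 replicate 4, the log2 fold changes were 1.11 for Cd274, 1.41 for Lgals9, 0.58 for Pvr and 0.36 for Cd47, and without shTlr7 replicate 1 they were 0.96, 1.18, 0.40 and 0.24. All of these passed the edgeR threshold.

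CD73 showed the largest fall of the 8 genes, with little spread among libraries. Nt5e (chromosome 9, 88327609 to 88372089, plus strand) had 293, 308, 298 and 285 CPM in shTlr7 replicates 1 to 4, against 708, 715, 687 and 679 CPM in shCtrl. The coefficient of variation was 3.27% in shTlr7 and 2.47% in shCtrl. Its log2 fold change was -1.24 ± 0.04 (SE), a 0.424-fold level (edgeR adjusted p = 5.35e-11).

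Transcripts of CD39, the enzyme upstream of CD73, were not detectable beyond 1 count. Entpd1 (chromosome 19, 40612366 to 40741602) had 0, 1, 0 and 0 counts in shTlr7 replicates 1 to 4 and 0 counts in every shCtrl library. A count of 0 allows up to 0.166 CPM in shTlr7 replicate 1 and up to 0.0583 CPM in shCtrl replicate 2, taking 3 counts over the library total as the limit and covering counting error only. As Entpd1 did not pass the filter, the main fit gave no fold change for it.

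**Figure D2:**
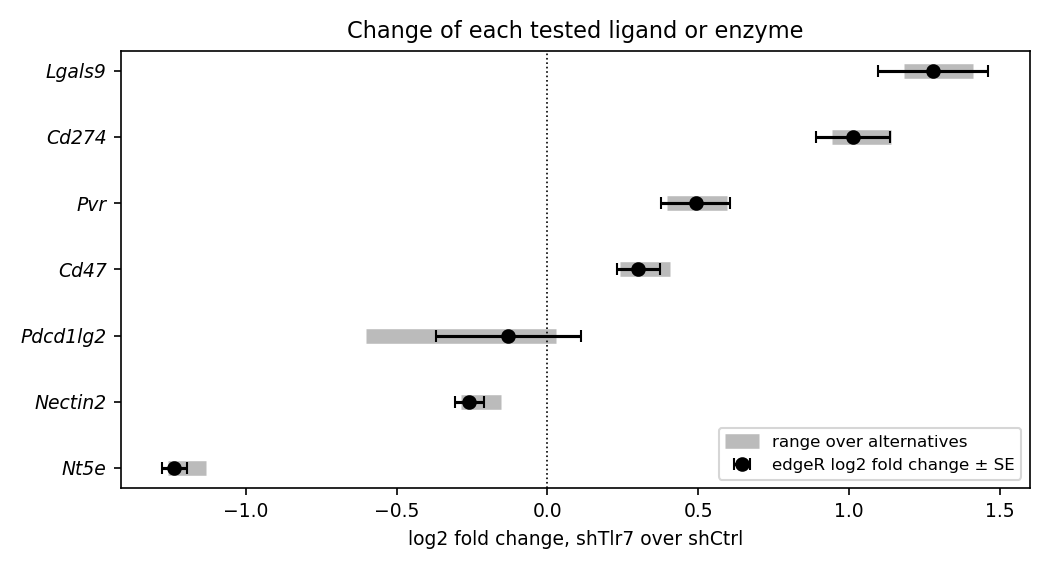
Log2 fold change of shTlr7 over shCtrl for the 7 tested genes (points, edgeR) with its SE (bars) and the range over other fits (grey; 19 for each gene, 18 for Pdcd1lg2), which differ in scaling, tool, filter, block or libraries. Lgals9 (1.28) and Cd274 (1.01) lie farthest to the right and Nt5e (-1.24) farthest to the left, and only the range of Pdcd1lg2 spans 0.

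Per kb of exon, the order of the ligands differed between the groups. In shTlr7, Lgals9 led with 47.1 ± 11.3 CPM per kb (SD, n = 4), and its library range overlapped that of Cd47 with 34.5 ± 4.18, which overlapped that of Nt5e with 34.4 ± 1.13 CPM per kb. Nectin2 with 20.2 ± 1.07 and Pvr with 17.5 ± 3.16 CPM per kb followed and overlapped each other. Cd274 with 3.44 ± 0.562 and Pdcd1lg2 with 0.287 ± 0.0701 CPM per kb stayed below all of these in shTlr7. In shCtrl, Nt5e led with 81.1 ± 2.00 CPM per kb (SD, n = 4), followed by Cd47 with 28.0 ± 0.637, Nectin2 with 24.1 ± 0.915, Lgals9 with 19.4 ± 1.97 and Pvr with 12.4 ± 0.553 CPM per kb. Cd274 with 1.69 ± 0.194 and Pdcd1lg2 with 0.314 ± 0.0290 CPM per kb were again below these, and no neighbours in the shCtrl order had overlapping library ranges. PD-L1 was therefore the sixth of the 8 genes in level in both groups. Exon lengths are unions over all GENCODE M21 transcripts and may not match the isoforms expressed.

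**Figure D3:**
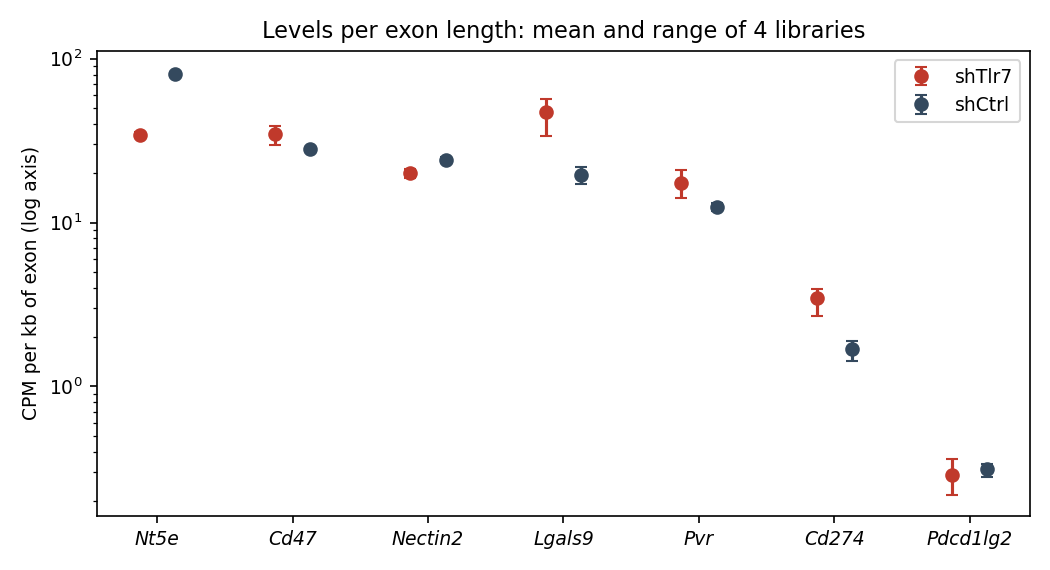
CPM per kb of exon on a log axis for the 7 tested genes, shTlr7 left of shCtrl, as the mean (points) and the range over 4 libraries (bars). Lgals9, Cd47 and Nt5e have means between 34.4 and 47.1 in shTlr7, and Nt5e stands alone at the top in shCtrl at 81.1.

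Other genes of nucleotide and adenosine metabolism moved in both directions around Nt5e. Of 25 tested genes listed for ATP and adenosine handling, some of which act inside the cell, 8 rose and 9 fell (median log2 fold change -0.04). The 4 with the lowest p all fell. Entpd3, an ectonucleotidase that like CD39 hydrolyses ATP at the cell surface, fell to 8.61 ± 0.959 CPM in shTlr7, against 41.6 ± 1.15 CPM in shCtrl (SD, n = 4 each), a log2 fold change of -2.28 (edgeR adjusted p = 5.42e-11). Enpp1, which cleaves ATP to AMP and pyrophosphate, had 12.5 ± 1.17 CPM in shTlr7 and 28.8 ± 3.19 CPM in shCtrl, a log2 fold change of -1.20 (edgeR adjusted p = 9.66e-08). Enpp2 encodes autotaxin, known for making lysophosphatidic acid, and had a log2 fold change of -2.70 (edgeR adjusted p = 2.03e-10). P2ry6, a receptor for UDP, had one of -2.34 (edgeR adjusted p = 2.20e-08).

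Further genes of this list, all named after their values were seen, also went both ways. The nicotinamide-nucleotide ectoenzymes Cd38 and Bst1 fell, with log2 fold changes of -0.83 and -1.07. Slc28a3, a concentrative nucleoside transporter, had 0.0447 ± 0.0487 CPM in shTlr7 and 1.49 ± 0.377 CPM in shCtrl. Panx1, a channel that releases ATP, rose by 0.89 on the log2 scale, and P2rx7, an ATP-gated channel, rose by 1.05. Among other genes of the Entpd family, Entpd5 rose by 0.88 and Entpd6 by 0.45. Entpd2 had 1.02 ± 0.0698 CPM in shTlr7 and 0.228 ± 0.0398 CPM in shCtrl. The equilibrative nucleoside transporter Slc29a1 had a log2 fold change of -0.05 and did not pass the threshold. The adenosine receptor Adora2b had a log2 fold change of 0.69 (edgeR adjusted p = 0.0183), with overlapping groups. Its level was low, with means of 1.00 CPM in shTlr7 and 0.655 CPM in shCtrl. Adora2a had too few counts to be tested.

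Genes known to control PD-L1 moved both ways. Of 30 such genes tested, 9 rose and 12 fell (median log2 fold change -0.10), and 7 were lower under scaling by library size alone. Irf9, the DNA-binding part of the type I interferon factor ISGF3, had 107 ± 12.4 CPM in shTlr7 and 43.7 ± 4.16 CPM in shCtrl (SD, n = 4 each; log2 fold change 1.30, edgeR adjusted p = 2.85e-07). Stat2, which binds Irf9 and was chosen after seeing its values, had 144 ± 18.5 CPM in shTlr7 and 57.6 ± 9.64 CPM in shCtrl. Irf1, the factor through which interferon-gamma is known to induce PD-L1, also chosen after seeing its values, had 165 ± 11.7 CPM in shTlr7 and 179.7 ± 36.0 CPM in shCtrl and did not pass the threshold (edgeR adjusted p = 0.448). Its shCtrl spread came from replicate 4 at 234 CPM, with 161 to 162 CPM in the other shCtrl libraries.

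Some interferon receptor chains and the kinase Jak2 fell. Ifnar2, a chain of the type I interferon receptor, had 31.3 ± 1.38 CPM in shTlr7 and 51.3 ± 1.21 CPM in shCtrl, a log2 fold change of -0.71 (edgeR adjusted p = 5.35e-08). The kinase Jak2 had 331 ± 13.1 CPM in shTlr7 and 516 ± 34.7 CPM in shCtrl, a log2 fold change of -0.64 (edgeR adjusted p = 2.24e-07). The interferon-gamma receptor chains, chosen after seeing their values, also fell, Ifngr1 by 0.17 and Ifngr2 by 0.37 on the log2 scale. Ifnar1, the other type I interferon receptor chain, chosen in the same way, had a log2 fold change of -0.09 and did not pass (edgeR adjusted p = 0.0913). Cmtm6, which protects PD-L1 protein from lysosomal degradation, rose to 194 ± 6.92 CPM in shTlr7, against 132 ± 5.33 CPM in shCtrl (log2 fold change 0.55, edgeR adjusted p = 1.74e-07). The feedback inhibitors Socs1 and Socs3, also named after their values were seen, went opposite ways, at 0.87 and -0.65. The part of these genes in the levels of Cd274 was not tested.

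**Figure D4:**
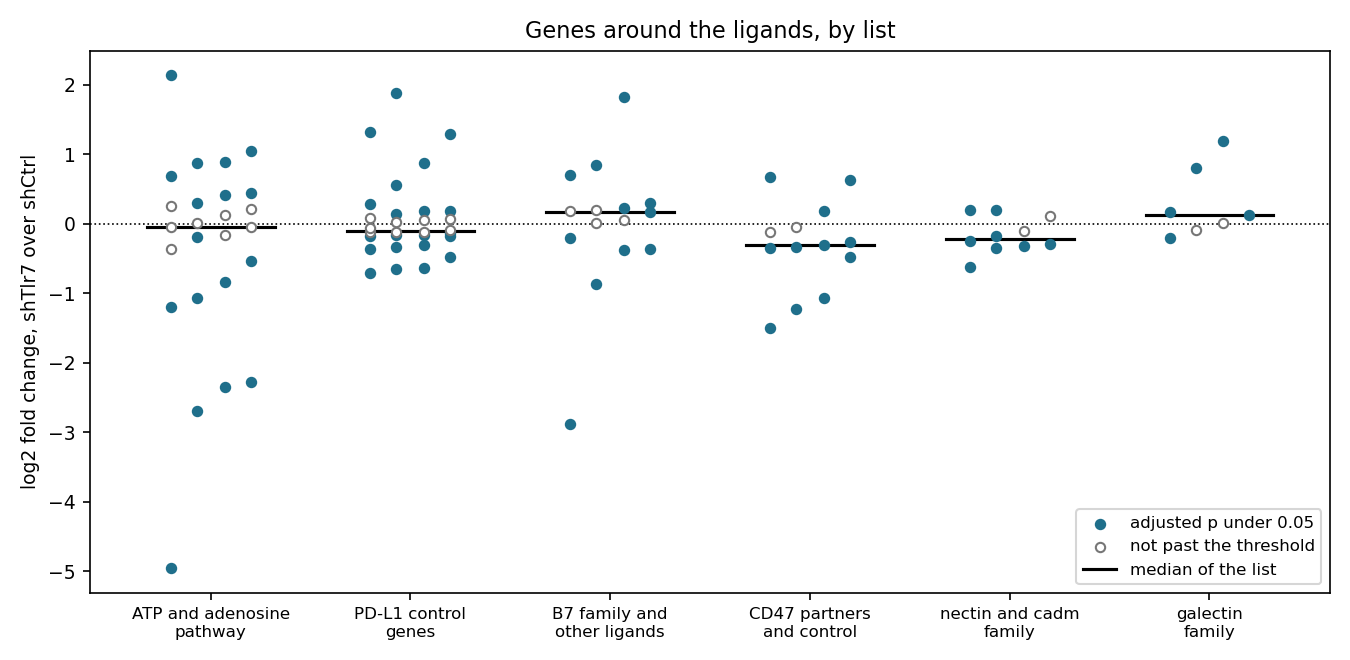
Log2 fold change of shTlr7 over shCtrl (vertical axis) for the tested genes of 6 lists, filled where the edgeR adjusted p is under 0.05, with the median of each list (line). Every list holds called genes on both sides of 0, and the medians lie between -0.31 and 0.17.

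Other inhibitory and costimulatory ligands did not share a direction. Of 15 tested, 6 rose and 5 fell (median log2 fold change 0.17). Cd276 (B7-H3), of the same B7 family as PD-L1, fell to 141 ± 5.58 CPM in shTlr7, against 182 ± 6.18 CPM in shCtrl (SD, n = 4 each; log2 fold change -0.36, edgeR adjusted p = 8.04e-06). Vtcn1 (B7-H4) had 0.242 ± 0.0496 CPM in shTlr7 and 1.90 ± 0.191 CPM in shCtrl, a log2 fold change of -2.88 at a low level (edgeR adjusted p = 1.02e-07). Tnfsf10 encodes the death ligand TRAIL and rose by 1.82 on the log2 scale (edgeR adjusted p = 8.81e-06). Icosl, the ligand of the costimulatory receptor ICOS, rose by 0.85 (edgeR adjusted p = 1.00e-05). Cd80 and Cd86, the ligands of CD28, had too few counts to be tested.

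Other genes of the galectin family went both ways. Of 7 tested family members and binding proteins other than Lgals9, 4 rose and 1 fell (median log2 fold change 0.13), and 2 were higher without shTlr7 replicate 2 or without shCtrl replicate 3. Lgals3bp, a secreted glycoprotein that binds galectins, rose to 217 ± 29.6 CPM in shTlr7, against 94.9 ± 2.01 CPM in shCtrl (log2 fold change 1.19, edgeR adjusted p = 5.74e-07). The abundant galectin-1 gene Lgals1 had a log2 fold change of -0.21 (edgeR adjusted p = 0.0127), which did not pass under scaling by library size alone (-0.10, edgeR adjusted p = 0.166). Lgals8 had one of 0.17 (edgeR adjusted p = 0.0064). Lgals4, at 1.97 ± 0.552 CPM in shTlr7 and 1.19 ± 0.396 CPM in shCtrl, had one of 0.81 (edgeR adjusted p = 0.0231). It did not pass without shTlr7 replicate 2, shCtrl replicate 2 or shCtrl replicate 3, where its edgeR adjusted p was 0.0506, 0.108 and 0.0556. With libraries thinned to the smallest total, its log2 fold change was 0.52 and did not pass (edgeR adjusted p = 0.204). Lgals3, named after its values were seen, had 411 ± 44.2 CPM in shTlr7 and 406 ± 19.0 CPM in shCtrl.

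Around CD47, its matrix ligand fell. Of 13 tested partners and control genes of CD47, 3 rose and 8 fell (median log2 fold change -0.31). Itgb3, a subunit of the integrin that associates with CD47, had a log2 fold change of -1.22 (edgeR adjusted p = 9.85e-06), Hif1a one of -0.48, Ubqln1, a ubiquilin that binds the CD47 tail, one of -0.35, and Nfkb1 one of -0.34. Thbs1 encodes the CD47 ligand thrombospondin-1 and, named after its values were seen, had 327 ± 39.3 CPM in shTlr7 and 929 ± 161 CPM in shCtrl, a log2 fold change of -1.50. Qpctl, the enzyme that forms the pyroglutamate by which CD47 binds SIRP-alpha, named in the same way, rose by 0.63 on the log2 scale (edgeR adjusted p = 3.91e-05). Calr, the pro-phagocytic counterpart of CD47 when exposed at the surface, also named so, rose by 0.19.

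In the nectin and cadm adhesion family and its junction partners, 2 of 10 tested genes rose and 6 fell (median log2 fold change -0.22). Nectin1 had 56.7 ± 2.41 CPM in shTlr7 and 69.6 ± 2.07 CPM in shCtrl (SD, n = 4 each), a log2 fold change of -0.29 (edgeR adjusted p = 1.16e-04), close in size to that of Nectin2. The catenin Ctnnd1 had one of -0.32 and the polarity protein Pard3 one of -0.25. Cdh1, which encodes E-cadherin, rose by 0.20, and Nectin3, both named after their values were seen, had one of 0.11 and did not pass (edgeR adjusted p = 0.129).

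Receptors of these ligands were mostly at or near 0. Of 16 receptor genes listed, 15 had a row and 6 had enough counts to be tested. Some on the list, such as Lag3, are receptors of other ligands. Of the 6 tested, 3 fell and 0 rose (median log2 fold change -0.32). Pdcd1 (PD-1) had a mean of 0.0749 CPM in shTlr7 and 0.0719 CPM in shCtrl, and Cd226 was at 0 in every library. Cd96 had 1 count and Pvrig 2 counts in all. Crtam averaged 0.0956 CPM in shTlr7 and 0.0525 CPM in shCtrl, from 14 and 8 counts pooled over 4 libraries each. Adora2a averaged 0.166 CPM in shTlr7 and 0.0676 CPM in shCtrl, from 32 and 9 pooled counts. Sirpa, the CD47 receptor, had 33.0 ± 0.448 CPM in shTlr7 and 35.8 ± 1.29 CPM in shCtrl and did not pass (edgeR adjusted p = 0.0574), though it did in 5 of the other fits. Rgmb, which also binds PD-L2, had a log2 fold change of -0.36 (edgeR adjusted p = 0.00331). Havcr2 (TIM-3), a receptor of galectin-9, had 7.29 ± 0.851 CPM in shTlr7 and 17.2 ± 3.03 CPM in shCtrl (log2 fold change -1.24, edgeR adjusted p = 5.44e-06). Lag3 at 0.27 and Tnfrsf9 at -0.28 did not pass the edgeR threshold.

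The row named Tigit, the receptor of Pvr and Nectin2, held 853, 4586, 2026 and 1434 counts in shTlr7 replicates 1 to 4 and 2698, 7192, 2989 and 2881 counts in shCtrl. It averaged 49.7 ± 5.46 CPM in shTlr7 and 143 ± 10.8 CPM in shCtrl, a log2 fold change of -1.52 (edgeR adjusted p = 1.07e-08). These are reads assigned to a gene known for T and natural killer cells in libraries with 0.179 CPM of Ptprc or less on average. In RefSeq (GRCm38.p6), Tigit spans 43626137 to 43665125 of chromosome 16 and overlaps Zbtb20, which spans 42875689 to 43634392. In GENCODE M21, Tigit spans 43648867 to 43664146 only, which lies beyond the end of that Zbtb20 span. The annotation and strand setting behind the counts are unknown, so whether reads of the RefSeq overlap entered the Tigit row cannot be told. The Zbtb20 row averaged 3.41 CPM in shTlr7 and 4.31 CPM in shCtrl.

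Lists on routes known to act on Nt5e were described beside it. Of 10 tested YAP and TEAD genes, 7 fell and 1 rose (median log2 fold change -0.40). Those with the lowest p were Ccn2 at -1.33, Amotl2 at -0.80, Lats2 at -0.40 and Tead1 at -0.39. Of 9 tested hypoxia markers, 2 rose and 2 fell (median -0.11). Vegfa had a log2 fold change of -0.96 and Pdk1 of -0.26, whereas the glucose transporter Slc2a1 had one of 0.38 and the prolyl hydroxylase Egln3 of 0.64. Without shTlr7 replicate 2, 5 hypoxia markers were lower. The part of either list in the level of Nt5e was not tested.

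Genes whose log2 CPM followed each member most closely over the 8 libraries were sought among 9308 tested genes, by the root mean square difference after centring each gene on its mean. The nearest to Lgals9 were the interferon-induced gene Samd9l (difference 0.124, log2 fold change 1.29) and Lgals3bp (0.134). For Cd274 they were Enpp4 (0.0754, log2 fold change 0.97), a membrane nucleotide hydrolase, and Eif2ak2 (0.0910, log2 fold change 1.11), the interferon-induced kinase PKR. For Nt5e they were the glucosyltransferase gene B3glct (0.0482, log2 fold change -1.26) and the membrane metalloprotease gene Mmp14 (0.0609, log2 fold change -1.14). The nearest to Cd47 were Il13ra1 (0.0369) and Pfkp (0.0475), to Pvr Plk2 (0.0447) and Sat1 (0.0693), to Nectin2 Wbp2 (0.0192) and Ttl (0.0204), and to Pdcd1lg2 Dynlt1f (0.115) and Mgme1 (0.127). The libraries fall into 2 groups, so this measure mainly reflects the size of the difference between the groups.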

How the data were processed

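Expression was measured by RNA-seq in 8 libraries of 4T1 spheroids, 4 shTlr7 and 4 shCtrl, grouped by their titles. The authors deposited whole-number read counts per gene without normalization. STAR 2.7.5, DESeq2 1.32.0 and GRCm38 appear in the submitters' processing notes, with no role stated. Which counter, strand setting and annotation were used is not given in the sources used here. Totals were 18.1 to 93.8 M counts, and this depth limits genes under about 1 CPM.

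The main test, in R 4.3.3, was that of edgeR 4.0.16 on all 13393 genes kept by filterByExpr, with TMM scaling and group as the only term (robust glmQLFit, glmQLFTest, Benjamini-Hochberg adjusted p under 0.05). SE is the log2 fold change over the square root of F. CPM use TMM-scaled library sizes. Values are mean ± SD over 4 libraries. The test was run on simulated data in which far fewer genes changed than were called here. That run cannot show how the test performs on these libraries. The members, the gene lists and the tests were chosen with earlier results of these data known. Named are the members, Tlr7, the 4 genes with the lowest p per list, receptors with any count, markers, and the 2 genes nearest each member among those whose average log2 CPM was 3 or more; others are said to be chosen after their values were seen. Log2 CPM for that search had a prior count of 2. Alternatives are RLE, upper-quartile and library-size scaling, DESeq2 1.42.0, limma-voom (limma 3.58.1), 2 other filters, adjusted p under 0.01, glmTreat against 1.5-fold, the replicate number as a block, left-out libraries, libraries thinned to 18.1 M counts, and summed copies of genes. Sequences are from RefSeq, exons from GENCODE M21. None of the 8 members has a second copy in the table. A gene of one list is not reported here.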

Additional observations from a re-analysis of the deposited data

Results flagged for a closer look

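No library of the 7 tested ligands stood apart from its group. Over these and the other genes named, 15 of 186 groups of 4 libraries (8.06%) had 1 outlying library. Its gap to the nearest of the others passed Dixon's 95% critical value. Chance gives about 1 in 20 for independent groups, but these groups share the same libraries and are not independent. In 12 of the 15 the outlying library was shCtrl replicate 4. That library was high for Enpp1, at 33.6 CPM where the other shCtrl libraries had 26.8 to 27.8 CPM, and for Irf9, at 49.8 CPM with 40.6 to 42.2 CPM in the others. It had 106 CPM of Itgb3 (others 83.1 to 86.3), 134.6 CPM of Amotl2 (others 105 to 109) and 72.0 CPM of Stat2 (others 51.7 to 53.9). Irf1 was at 234 CPM in it (others 161 to 162), Thbs1 at 1169.6 CPM (others 829 to 870.0) and Plgrkt at 36.9 CPM (others 32.4 to 32.8). The same library was low for Hif1a, at 256 CPM (others 292 to 294), for Lgals1, at 1798 CPM (others 2134 to 2190), for Entpd6, at 16.5 CPM (others 16.8), and for Socs1, at 4.90 CPM (others 7.17 to 7.44). Socs1 was also low in shTlr7 replicate 4, at 8.63 CPM, where the other shTlr7 libraries had 13.2 to 13.6 CPM. Qpctl was high in shCtrl replicate 3, at 10.9 CPM (others 8.87 to 8.97), and Lgals3 in shCtrl replicate 1, at 435 CPM (others 394 to 399).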

How the results depend on the processing

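The directions and calls of Cd274, Cd47, Nt5e, Lgals9, Pvr and Nectin2 were the same under all scalings, tools and filters, under adjusted p under 0.01, with the block, with thinned libraries, with summed copies and without any library. Over 19 fits at the 0.05 threshold, log2 fold changes spanned 0.94 to 1.14 for Cd274, 1.18 to 1.41 for Lgals9, 0.40 to 0.59 for Pvr, 0.24 to 0.40 for Cd47, -0.29 to -0.16 for Nectin2 and -1.26 to -1.13 for Nt5e. Against a fold of 1.5 (glmTreat), 2 members were called higher and 1 lower, with 472 and 666 of all genes. Cd47 (0.30), Pvr (0.49) and Nectin2 (-0.26) then lost their calls, since that test asks for a larger change. Pdcd1lg2 ranged from -0.24 to 0.028 over fits without 1 library and was -0.60 with thinned libraries, never past the threshold; the cause was not tested. Dynlt1f turned positive, at 0.015, under scaling by library size alone. Entpd1 had a fit only without a filter (1.38 ± 1.46 SE, edgeR adjusted p = 0.480), which rests on 1 count in shTlr7 and 0 in shCtrl.

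Same-numbered libraries had correlations of -0.01, 0.11, 0.12 and 0.38 in their deviations from the group means, so not every pair was over 0.1 and the numbers were not taken to pair the libraries. With the replicate number as a block, 4334 genes were higher and 4005 lower, all 6 called members passed, with Pvr at 0.47 (edgeR adjusted p = 0.0498), and 4 hypoxia markers were lower. The libraries numbered 4 were each other's best match. In 1 direction only, shTlr7 replicate 2 matched shCtrl replicate 2 best and shCtrl replicate 3 matched shTlr7 replicate 3 best. No other library matched its own number best.

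Counts of lists moved by over 1.5 times outside the stricter tests for PD-L1 control genes (7 lower with library size only), galectins (0 lower with library size only, 2 lower without a filter), hypoxia markers (1 lower with library size only), and with limma-voom for receptors (5 lower) and YAP and TEAD genes (2 higher). Of 1071 values for 51 other named genes, 1013 had the same direction and call.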

Other observations

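Some genes near the ligands on the chromosome are given here, chosen after seeing their values. Nos2, Jak2 and Snx14 went opposite to the ligand near them, and Plgrkt went the same way as Cd274. They do not stand for all neighbours. Near Nectin2, which fell, Bcam had a log2 fold change of -0.57 and Clptm1 one of 0.31. Nos2, which encodes inducible nitric oxide synthase, lies 2753 bases from Lgals9 and had 25.9 ± 10.1 CPM in shTlr7 and 137 ± 14.1 CPM in shCtrl (SD, n = 4 each), a log2 fold change of -2.38 (edgeR adjusted p = 7.95e-04), where Lgals9 had one of 1.28. Jak2 lies 49012 bases from Cd274 and had a log2 fold change of -0.64, where Cd274 had one of 1.01. Plgrkt, a plasminogen receptor gene whose RefSeq span overlaps that of Cd274, rose to 44.7 ± 1.42 CPM in shTlr7, against 33.7 ± 2.13 CPM in shCtrl (log2 fold change 0.41, edgeR adjusted p = 2.58e-05). Snx14 lies 4666 bases from Nt5e and rose by 0.28 (edgeR adjusted p = 1.30e-04), where Nt5e had a log2 fold change of -1.24.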
